A study of Homo sapiens with 12 samples.

Results

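Of the antigen presentation genes with deposited m7G regions, 3 were chosen here: CD74, TAPBP and HLA-F. Their regions were taken as every row of the peak table that overlapped the RefSeq body of one of these genes by at least 1 base. This gave 5 of 9958 rows: 2 for CD74, 1 for TAPBP and 2 for HLA-F. The 2 CD74 rows held the same interval and the same counts, so the rows described 4 distinct intervals. The cells were THP-1, a human monocytic leukemia line, made adherent with the phorbol ester PMA at 100 ng/ml for 48 h, a treatment shared by all groups. Polyadenylated RNA was the starting material, and m7G meRIP-seq reads RNA fragments pulled down with an antibody against 7-methylguanosine. The groups were METTL1 knockdown immunoprecipitate (KD IP), METTL1 knockdown input (KD IN), control immunoprecipitate (NC IP) and control input (NC IN), with 3 libraries each. The knockdown used a short hairpin (shMETTL1), NC was taken as its control and IN as input from the library names, and the labels do not say whether libraries came from separate cultures, so p values measure the spread between these libraries.

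Antigen presentation shows peptides to T cells on 2 kinds of surface molecule. Class II molecules carry peptides from endosomes. CD74, the invariant chain, binds new class II molecules, blocks their peptide groove and guides them to the endosome, where cathepsins degrade it. CD74 also sits at the cell surface as a receptor for the cytokine MIF. Class I molecules carry peptides made by the proteasome. TAPBP encodes tapasin, which holds an empty class I molecule next to the TAP peptide transporter until it has bound a suitable peptide. HLA-F is a non-classical class I molecule with little sequence variation between people and a more restricted pattern of expression than the classical class I molecules. In macrophages class II genes follow the transactivator CIITA and class I genes follow NLRC5, and both are raised by interferon.

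The CD74 and TAPBP regions lay on the gene start, whereas the HLA-F regions lay farther in. On GRCh38 the CD74 region covered chr5:150412702-150412910 on the minus strand, 209 bases that began at the first base of the RefSeq gene. The TAPBP region covered chr6:33313837-33314087 on the minus strand, 251 bases that began 9 bases before the RefSeq start. The longer HLA-F region covered chr6:29724439-29725112 on the plus strand, 674 bases that began 1005 bases after the gene start. The shorter HLA-F region covered chr6:29724199-29724260, 62 bases that began 765 bases after it. All 5 rows had their centre in the first 10% of the gene body, as did 33.4% of 9044 regions in 1 protein-coding gene. A region covered the gene start in 16.1% of 7351 regions whose gene strand was known. Each of the 5 rows was on the strand of its gene. Exons and untranslated regions were not used here, so positions are given along the gene body. No other RefSeq gene overlapped these intervals. The antisense transcript HLA-F-AS1 overlaps the gene HLA-F but starts beyond both regions.

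**Figure D1:**
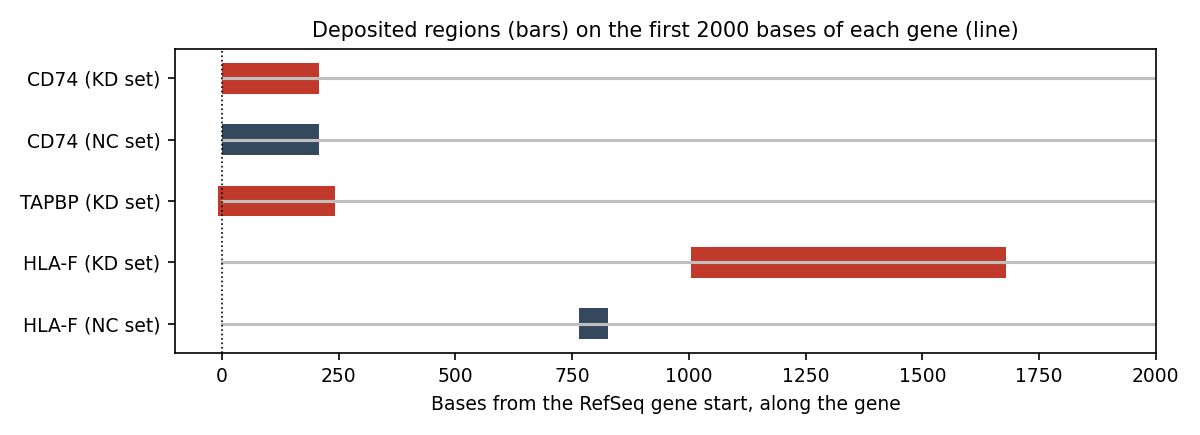
Each bar is a deposited region of CD74, TAPBP or HLA-F, drawn in bases from the RefSeq gene start along the gene (red, KD peak set; dark blue, NC peak set). The CD74 region runs from the start for 209 bases in both sets, the TAPBP region begins 9 bases before the start, and the HLA-F regions begin 1005 and 765 bases after it.

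Because the CD74 and TAPBP regions adjoin the start, the 250 bases before it are shown for the 3 genes, from RefSeq on GRCh38.p14. They are written from 5′ to 3′ along the gene, up to the base before the start. Capitals mark letters that matched a searched motif on either strand. The motifs were the CCAAT box (CCAAT), the core of the interferon-stimulated response element (GAAA, any 2 bases, GAAA), a nuclear factor kappa B site (GGG, any 2 bases, TT, any 1 base, CC), the PU.1 core (GAGGAA) and the TATA box (TATAAA).
CD74 (chr5:150412911-150413160, minus strand): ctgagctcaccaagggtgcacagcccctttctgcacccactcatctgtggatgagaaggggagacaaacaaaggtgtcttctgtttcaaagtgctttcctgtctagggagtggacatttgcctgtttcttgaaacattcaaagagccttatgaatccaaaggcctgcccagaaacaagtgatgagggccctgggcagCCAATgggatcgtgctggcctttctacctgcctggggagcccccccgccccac
TAPBP (chr6:33314079-33314328, minus strand): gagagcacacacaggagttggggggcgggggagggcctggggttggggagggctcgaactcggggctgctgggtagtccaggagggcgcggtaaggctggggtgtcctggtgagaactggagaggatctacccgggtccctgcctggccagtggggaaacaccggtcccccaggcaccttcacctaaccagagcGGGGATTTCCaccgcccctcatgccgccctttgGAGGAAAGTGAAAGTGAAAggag
HLA-F (chr6:29723184-29723433, plus strand): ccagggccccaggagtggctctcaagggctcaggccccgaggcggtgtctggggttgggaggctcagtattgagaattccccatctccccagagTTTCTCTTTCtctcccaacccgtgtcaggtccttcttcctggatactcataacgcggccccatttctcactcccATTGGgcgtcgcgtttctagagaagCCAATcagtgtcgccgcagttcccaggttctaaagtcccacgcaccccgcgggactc

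The upstream sequences differed in which of these letters they held. CD74 held 1 match to the CCAAT box, 53 to 49 bases before the start. TAPBP held 2 overlapping matches to the interferon response core, within the 20 bases before the start, a PU.1 match that overlapped the first of them, and a nuclear factor kappa B match. HLA-F held 2 CCAAT matches, 1 on each strand, and 1 match to the interferon response core on the opposite strand. Of 15842 promoters of protein-coding genes, 34.5% held the CCAAT box, 2.7% the interferon response core, 5.6% the nuclear factor kappa B letters, 23.5% the PU.1 core and 9.2% the TATA box. None of the 3 genes held the TATA letters in this window. A match describes the letters only.

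The libraries of the KD and NC groups differed beyond these genes. Reads in peak regions summed to 953727 to 1105477 in KD IN, 907024 to 1052685 in NC IN, 1513492 to 1888972 in KD IP and 1476384 to 1676625 in NC IP. No region overlapped METTL1, so the targeted gene was not measured. Of 28 macrophage and monocyte markers, 14 had a region and 12 were tested: 10 were higher and none lower in KD IN than in NC IN (edgeR, adjusted p under 0.05), and the summed CPM of the list ran from 4650 to 4830 in KD IN against 2260 to 2610 in NC IN. Those with the most reads were APOE (log2 1.39), LPL (log2 1.6), LAPTM5 (log2 0.97) and CTSD (log2 0.48), while PTPRC, CD14, CD163 and CSF1R had no region. Of 23 genes known from the embryonic kidney line HEK293, 12 were tested, 10 were lower and 1 higher in KD IN, and the sum ran from 1960 to 2110 CPM in KD IN against 9360 to 10000 in NC IN. NEFM, a neurofilament gene of that list, averaged 1.59 ± 2.76 CPM in KD IN and 5480 ± 211 CPM in NC IN (SD, n = 3), and NEFL, another neurofilament gene, averaged 2.17 CPM in KD IN and 626 CPM in NC IN. TCEAL9 (987 CPM in KD IN and 2240 CPM in NC IN) and NES (1020 CPM in KD IN and 506 CPM in NC IN) of the same list were abundant in both. The difference ran through all 3 NC libraries of each kind, so no comparison could be made without it, and the knockdown cannot be told apart from it. Its part in the results below was not tested. Of 11 B lymphoid and dendritic markers, BATF3 alone was tested, and it was lower in KD IN (log2 -2.11). Of 10 fibroblast and epithelial genes 3 were tested, and DSP was lower in KD IN. Over all tested regions 17.9% were called higher and 21.9% lower in KD IN. The lists were chosen with earlier results of these data known, so their counts are a description and no support.

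CPM, the read count relative to the TMM-scaled total of the tested regions of a library, was divided by region length to compare read density between regions. Exons were not used and the regions lie at different places in their genes, so this density is not a level of the whole gene. In KD IN, CD74 had 465 ± 43.7 CPM per kb (SD, n = 3), TAPBP 110 ± 55.1 and the longer HLA-F region 1.51 ± 2.61. In NC IN, CD74 had 178 ± 61.9 CPM per kb, TAPBP 57.6 ± 20.3 and the longer HLA-F region 24.8 ± 8.61. CD74 was thus the highest and the longer HLA-F region the lowest in both, and the 3 libraries of each of these regions did not overlap those of its neighbour in this order. The shorter HLA-F region had 15.4 ± 26.7 CPM per kb in KD IN and 32.8 ± 43 in NC IN, where its libraries (16.9, 81.5 and 0) overlapped those of TAPBP. In KD IP the same 3 regions had 383 ± 64.2, 110 ± 38.5 and 5.37 ± 0.88 CPM per kb. In NC IP they had 165 ± 21.8, 72.3 ± 4.7 and 7.19 ± 5.5 CPM per kb, in the same order. The shorter HLA-F region had 14.9 ± 5.8 CPM per kb in KD IP and 56.1 ± 49.1 in NC IP.

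CD74, the class II chaperone, was higher in the knockdown in both kinds of library. In input its region had 103, 91 and 92 reads in KD replicates 1 to 3, against 24, 28 and 44 reads in NC replicates 1 to 3. Scaled, these were 105, 87 and 100 CPM in KD IN, against 25.1, 35.4 and 50.9 CPM in NC IN. Every KD library lay above every NC library. Ranges did not overlap in 44.8% of tested regions, with KD higher in 20.2%. The input level was 2.63-fold higher in KD (log2 1.39 ± 0.25 SE, 95% interval 0.88 to 1.9; edgeR adjusted p = 7.5e-05), and 39.8% of 5113 tested regions passed this test, 17.9% of them higher and 21.9% lower as shares of all tested. In bulk RNA fewer cells that express a gene and less RNA per cell cannot be told apart.

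The immunoprecipitates showed CD74 higher in KD as well. The region had 127, 157 and 152 reads in KD IP, against 71, 47 and 58 reads in NC IP, replicates 1 to 3. These were 67.8, 78.2 and 94.4 CPM in KD IP, against 37.7, 29.3 and 36.5 CPM in NC IP. The groups did not overlap, as in 57.9% of regions, with KD higher in 29.5%. The immunoprecipitated level was 2.31-fold higher in KD (log2 1.21 ± 0.23; edgeR adjusted p = 0.00012), where 20.9% of regions were called higher, 20.1% lower and 41.0% in either direction.

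Most tested macrophage markers were higher in KD IN, as CD74 was. Set against the 14 marker regions of the same library, CD74 had 20.5 ± 2.08 reads per 1000 marker reads in KD IN and 15.6 ± 6.46 in NC IN (SD, n = 3). The libraries held 22.5, 18.3 and 20.7 in KD IN, against 9.63, 14.8 and 22.5 in NC IN, so the groups overlapped. On this scale CD74 was 1.31-fold higher in KD IN (exact permutation test, two-sided, p = 0.3, where 3 against 3 libraries cannot go below 0.1). In the immunoprecipitates it had 23.5 ± 3.06 in KD IP and 19 ± 1.69 in NC IP, 1.24-fold higher, with the smallest p this design allows (exact permutation p = 0.1). This scale was chosen after the data were seen, and it leans on the most abundant markers. APOE alone averaged 1540 CPM in KD IN and 585 CPM in NC IN, with a log2 value of 1.39, as for CD74. The median log2 value of the 12 tested markers was 0.69. A sum without APOE and LPL was not tested.

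CD74 showed no call for enrichment in either group. IP over input had a log2 value of -0.28 ± 0.22 in KD (95% interval -0.73 to 0.17; edgeR adjusted p = 0.3) and -0.1 ± 0.26 in NC (-0.63 to 0.44; adjusted p = 0.78). These values are relative to the average peak region, and the medians of all tested regions were 0.23 in KD and 0.13 in NC. IP and input differed by this test in 44.9% of regions in KD and 46.7% in NC. In the authors' deposited table the CD74 peak had a fold enrichment of 8.02 in the KD set, rank 2713 of 5008 with a set median of 9.56, and of 7.36 in the NC set, rank 2669 of 4950 with a set median of 8.59. The 2 measures have different baselines. The same interval in both sets was found for 4.9% of rows. The change in enrichment, KD against NC, was -0.18 ± 0.34 on the log2 scale (95% interval -0.88 to 0.51; edgeR adjusted p = 0.87), against -0.29 in the authors' deposited table (their adjusted p = 0.817).

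**Figure D2:**
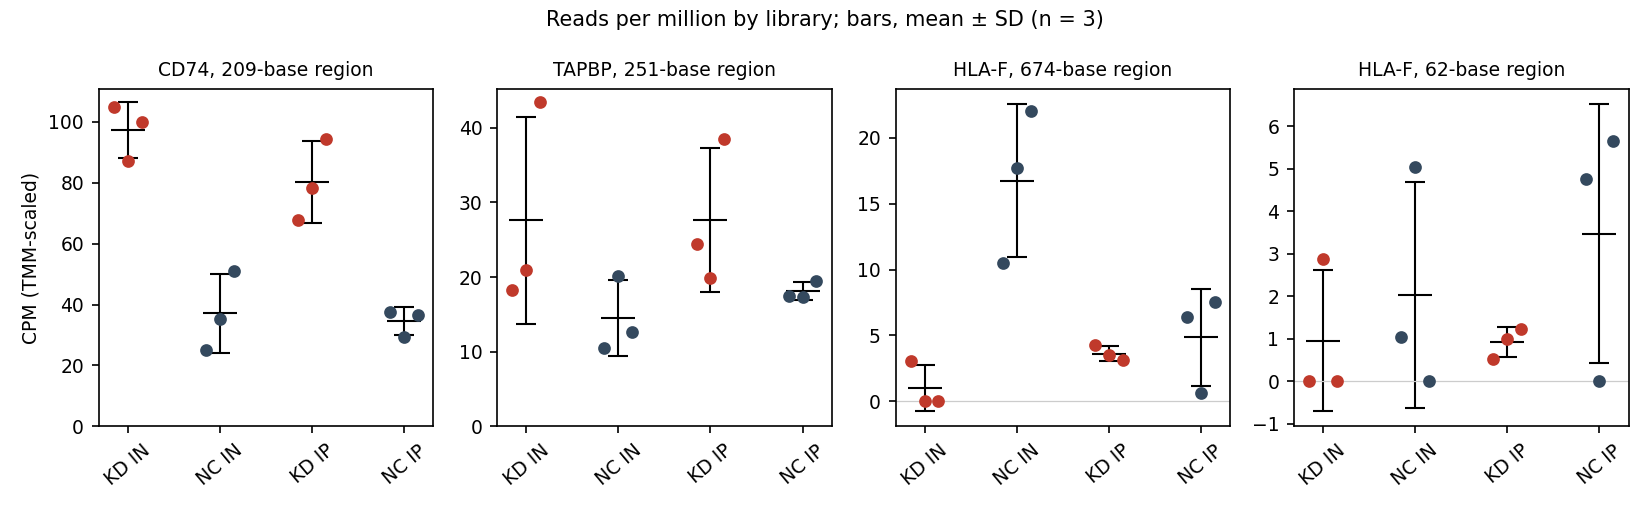
CPM (vertical axis) of the 4 distinct regions in each library (points), with the mean and SD of each group (n = 3), for KD IN, NC IN, KD IP and NC IP from left to right. CD74 sits at 87 to 105 CPM in KD IN and at 25.1 to 50.9 CPM in NC IN, the TAPBP input groups overlap, and the longer HLA-F region sits at 0 to 3.05 CPM in KD IN and at 10.5 to 22 CPM in NC IN.

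TAPBP, the class I loading factor, did not pass the threshold in any comparison. Its region had 18, 22 and 40 reads in KD IN, against 10, 16 and 11 reads in NC IN, replicates 1 to 3. These were 18.3, 21 and 43.5 CPM in KD IN, against 10.5, 20.2 and 12.7 CPM in NC IN. The groups overlapped, and KD IN replicate 3 stood well above the other 2 KD libraries. The input level was 1.91-fold higher in KD (log2 0.93 ± 0.44, 95% interval 0.03 to 1.84; edgeR adjusted p = 0.094). Without KD IN replicate 3, the highest KD library, the value was 0.53 (edgeR adjusted p = 0.39). Without KD IN replicate 1 it was 1.22 (edgeR adjusted p = 0.037), and without NC IN replicate 2 it was 1.28 (adjusted p = 0.046). Over all single libraries left out it ran from 0.53 to 1.28.

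In the immunoprecipitates TAPBP had 24.5, 19.9 and 38.5 CPM in KD IP, against 17.5, 17.4 and 19.5 CPM in NC IP. The KD libraries all lay above the NC libraries, as in 29.5% of regions, though the lowest KD value, 19.9 CPM, was close to the highest NC value, 19.5 CPM. The log2 value was 0.6 ± 0.38 (95% interval -0.19 to 1.39; edgeR adjusted p = 0.23). Against the macrophage markers TAPBP had 5.79 ± 2.8 reads per 1000 marker reads in KD IN and 6.03 ± 2.25 in NC IN (SD, n = 3; exact permutation p = 0.9). In the immunoprecipitates it had 8.11 ± 2.67 in KD IP and 10 ± 0.611 in NC IP (exact permutation p = 0.4).

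TAPBP enrichment was close to that of the average peak region, with wide intervals. IP over input had a log2 value of 0 ± 0.39 in KD (95% interval -0.8 to 0.8) and 0.34 ± 0.44 in NC (-0.56 to 1.24), and the change between them was -0.34 ± 0.58 (-1.54 to 0.87; edgeR adjusted p = 0.86). In the authors' deposited table the TAPBP peak was named for KD alone, with a fold enrichment of 3.61, rank 3804 of 5008, and a change of -0.46 (their adjusted p = 0.849). The NC immunoprecipitates held 92 reads in this interval and the KD immunoprecipitates 148, so a peak named for 1 group was read in both.

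HLA-F went the other way in input. Its longer region had 3, 0 and 0 reads in KD IN, against 10, 14 and 19 reads in NC IN, replicates 1 to 3. These were 3.05, 0 and 0 CPM in KD IN, against 10.5, 17.7 and 22 CPM in NC IN, with no overlap, as for 24.6% of regions that were lower. By reads the level was 16.2-fold lower in KD (95% counting interval 5.18 to 81.6), since KD IN held 3 reads in all against 43 in NC IN. The fitted log2 value was -3.91 ± 0.96 (edgeR adjusted p = 0.0021). It was -7.49 without KD IN replicate 1, which held the 3 reads. The filter kept this region through NC IN, where 3 of 3 libraries passed the minimum of 7.75 CPM, against 0 of 3 in KD IN, so a region kept this way had to differ and the call is no support for a change.

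In the immunoprecipitates the HLA-F groups overlapped. The longer HLA-F region had 8, 7 and 5 reads in KD IP, against 12, 1 and 12 reads in NC IP. These were 4.27, 3.49 and 3.1 CPM in KD IP, against 6.36, 0.623 and 7.55 CPM in NC IP, and the KD values lay inside the NC range. The log2 value was -0.42 ± 0.75 (95% interval -1.97 to 1.14; edgeR adjusted p = 0.7). NC IP replicate 2, with 1 read, stood apart from the other 2 NC libraries.

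The longer HLA-F region had IP over input values of opposite sign in the 2 groups. In KD, IP held 20 reads and input 3, a ratio of 3.58 (95% counting interval 1.06 to 18.8), with a fitted log2 value of 1.75 ± 1.07 (edgeR adjusted p = 0.19). In NC, IP held 25 reads and input 43, and the log2 value was -1.75 ± 0.71 (edgeR adjusted p = 0.045). The filter kept the region through NC IN, with 1 of 3 NC IP libraries past the minimum, so this call too is no support for a difference. It held in 7 of 21 alternatives, with adjusted p values from 0.039 to 0.23. IP was called lower than input in 24.0% of regions in NC. KD IP lay just above KD IN in every library, as in 32.1% of regions (56.6% in either direction), and NC IP lay below NC IN, as in 27.5% (57.8% in either direction, 30.3% higher). The change in enrichment was 3.5 ± 1.27 (95% interval 0.87 to 6.12; edgeR adjusted p = 0.29, unadjusted p = 0.011). It was 7.04 without KD IN replicate 1 and 2.22 with both HLA-F regions summed. NC IN, through which the region passed the filter, enters this comparison, so the value is no support for a change. The authors' deposited table gave 3.54 (their p = 0.000633, adjusted p = 0.0611). In edgeR 0 of 5113 regions passed for the change in enrichment and 610 had an unadjusted p under 0.05, while DESeq2 called 21.

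The shorter HLA-F region did not pass the filter on low counts. It had 0, 3 and 0 reads in KD IN, against 1, 4 and 0 reads in NC IN, and 1, 2 and 2 reads in KD IP, against 9, 0 and 9 reads in NC IP. All 4 groups overlapped their counterparts. Without the filter the log2 change in enrichment was -0.98 ± 1.9 (edgeR adjusted p = 0.79), opposite in sign to that of the longer region. In the authors' deposited table this peak, named for NC, had a fold enrichment of 17.2, rank 621 of 4950, the highest of the 5 rows, and the longer one, named for KD, had 3.35. HLA-F is one of a family of similar class I genes, and how the authors placed reads that match several of them is not given in the sources used here, so its counts are uncertain. HLA-B, HLA-C, HLA-E and HLA-G had no region in the table.

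**Figure D3:**
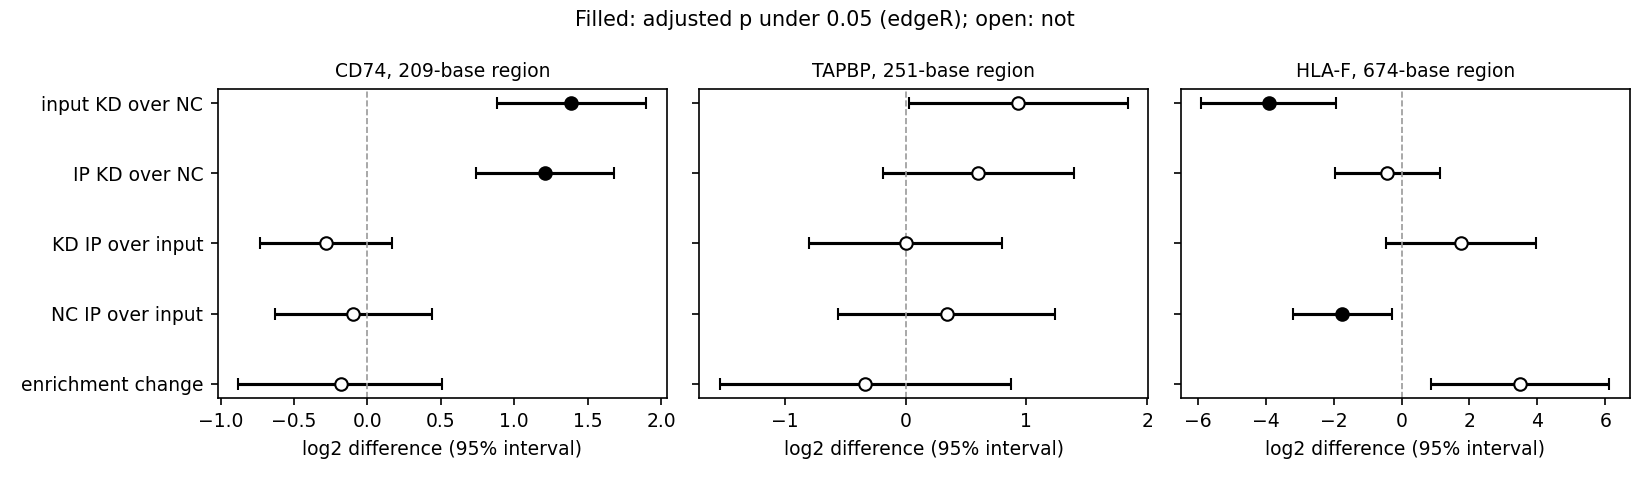
Log2 differences with 95% intervals (horizontal axis, scaled separately in each panel) for CD74, TAPBP and the longer HLA-F region in 5 comparisons (rows); filled points have an edgeR adjusted p under 0.05. CD74 is higher in KD in input and in IP with enrichment intervals that include 0, TAPBP has no filled point, and HLA-F has filled points for the input difference (-3.91) and for NC IP over input (-1.75).

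The other class II genes tested were 4 cathepsins and 4 transcription factor genes. Of 30 genes in a class II list, 10 had a region and 9 were tested: 4 were higher and 1 lower in KD IN, with a median log2 value of 0.47, beside -0.01 over all tested regions. CD74 was the highest of those called. Read against all tested regions, 17.9% were higher and 21.9% lower. Of the lysosomal proteases CTSB, CTSL, CTSD and CTSH, the first 3 were higher in input: CTSB (189 ± 57.6 CPM in KD IN and 119 ± 39.4 in NC IN; log2 0.67 ± 0.22, edgeR adjusted p = 0.016), CTSL (log2 0.47 ± 0.13, adjusted p = 0.005) and CTSD (log2 0.48 ± 0.17, adjusted p = 0.026). CTSB and CTSD are also in the macrophage list. CTSH had 93.6 ± 13.7 CPM in KD IN and 94.6 ± 15.4 in NC IN (log2 -0.01, adjusted p = 0.97). RFXAP, a subunit of the RFX complex that binds class II promoters, was lower: 13.9 ± 2.55 CPM in KD IN and 72.5 ± 15.2 CPM in NC IN (log2 -2.38 ± 0.28, edgeR adjusted p = 1.7e-07). RFXANK, another subunit, had 8.99 ± 5.14 CPM in KD IN and 2.38 ± 2.54 in NC IN (adjusted p = 0.074) in a region that also overlaps BORCS8. RFX5, of the same class II list, had 271 ± 38.7 CPM in KD IN and 306 ± 6.67 in NC IN (log2 -0.18, edgeR adjusted p = 0.34). CIITA, the class II transactivator, had 4 reads in KD IN and 1 in NC IN, in a region that also overlaps DEXI, and was not tested. HLA-DRA, HLA-DRB1, HLA-DPA1, HLA-DPB1, HLA-DMA and HLA-DMB, the molecules that CD74 accompanies or that load them, had no region.

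Calls in the class I list were close in share to those over all regions. Of 37 genes, 12 had a region and 8 were tested: 2 were higher and 2 lower in KD IN, with a median log2 value of 0.5, beside 17.9% higher and 21.9% lower over all tested regions. The 2 lower ones, HLA-F and THOP1, rest on 3 and 5 KD reads, and nothing is read from their direction. NRDC, a peptidase, was higher (2160 ± 122 CPM in KD IN and 1450 ± 67.7 in NC IN; log2 0.57 ± 0.09, edgeR adjusted p = 2.6e-05). PSME2, a subunit of the proteasome activator PA28, was higher as well (69.5 ± 19.4 CPM in KD IN and 34.4 ± 16.8 in NC IN; log2 1 ± 0.32, adjusted p = 0.014). THOP1, a cytosolic peptidase that destroys antigenic peptides, was lower together with HLA-F (5 reads in KD IN and 47 in NC IN; log2 -3.39 ± 0.9, edgeR adjusted p = 0.0039), and with so few KD reads it too could pass the filter through NC alone. CANX, the chaperone calnexin of new class I chains, had 581 ± 36.3 CPM in KD IN and 478 ± 26.2 in NC IN (adjusted p = 0.062). TAP2, a subunit of the transporter that tapasin binds, had 4 reads in KD IN and 2 in NC IN and was not tested. B2M, TAP1 and NLRC5 had no region. CIITA and TAP2 were picked for their roles, outside the rule for named genes. RFX5, CTSH and CXCR4 were also named outside it.

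In the immunoprecipitates 4 class II genes were higher and 2 lower in KD IP, and 1 of 8 class I genes was higher and none lower, beside 20.9% higher and 20.1% lower over all tested regions. CTSH was among those higher (log2 0.94, edgeR adjusted p = 4.7e-05). No gene of either list passed for the change in enrichment in edgeR. Of 28 interferon response genes 4 were tested, and IRF9, a subunit of the interferon-activated factor ISGF3, was higher in KD IN (52.9 ± 1.72 CPM in KD IN and 28.4 ± 6.03 in NC IN; log2 0.89 ± 0.28, edgeR adjusted p = 0.013). Over all tested regions 17.9% were higher and 21.9% lower in KD IN. In IP, IRF9 did not pass (log2 0.37, edgeR adjusted p = 0.25). SOCS3 (log2 1.85, adjusted p = 0.2), IFNAR2 (log2 -0.13, adjusted p = 0.64) and IFIT3 (log2 -0.13, adjusted p = 0.53) did not pass in input. In IP, SOCS3 (log2 1.86, edgeR adjusted p = 0.032) and IFNAR2 (log2 0.72, adjusted p = 0.0045) were higher and IFIT3 (log2 -0.39, adjusted p = 0.043) was lower. SOCS3 averaged 15.3 CPM in KD IP, 4.15 in NC IP, 4.32 in KD IN and 1.16 in NC IN. It could pass the filter through KD IP alone, so its call is no support for a change. The IFIT3 region also overlaps LIPA, and strand was not used here to choose between these genes, so its reads were not given to one of them. JAK1 and IFNGR1 had no region. LGALS9 was the tested gene of 10 costimulatory ones (19.4 ± 8.61 CPM in KD IN and 8.87 ± 7.18 in NC IN; edgeR adjusted p = 0.081).

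Partners of CD74 in MIF signalling and trafficking were measured in 4 of 10 genes, with 2 higher and none lower in KD IN. Over all tested regions 17.9% were higher and 21.9% lower, and with 4 genes nothing is read from this count. CD44, the co-receptor that signals for CD74, was higher in input (145 ± 10.7 CPM in KD IN and 70.5 ± 21.1 in NC IN; log2 1.05 ± 0.21, edgeR adjusted p = 0.00023) and in IP (log2 1.03, adjusted p = 0.00011). APP, the amyloid precursor protein, which CD74 can bind, was higher in input (86.4 ± 14.5 CPM in KD IN and 40.8 ± 6.04 in NC IN; log2 1.08 ± 0.22, adjusted p = 0.00033) but had a log2 value of -0.03 in IP (adjusted p = 0.91). CD9, a tetraspanin, had 34.1 ± 13.5 CPM in KD IN and 32.1 ± 5.81 in NC IN (adjusted p = 0.84) but was higher in IP (log2 0.99, edgeR adjusted p = 0.006), and COPB1, a coat protein of Golgi vesicles, had a log2 value of 0.26 in input (adjusted p = 0.55). MIF itself had no region. CXCR4, another MIF receptor, had 9 reads in KD IN and 1 in NC IN, but 6 in KD IP and 11 in NC IP, and was not tested.

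**Figure D4:**
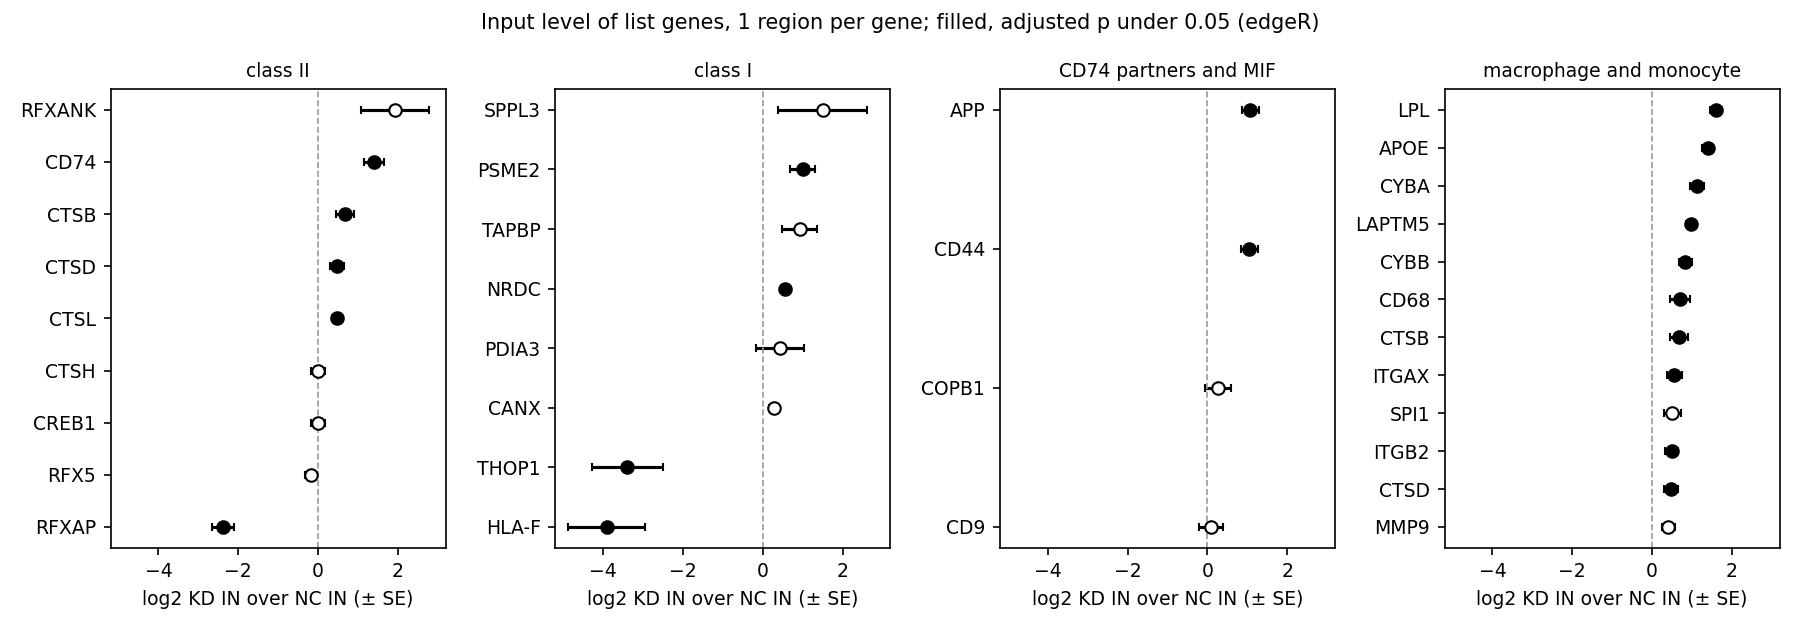
Log2 KD IN over NC IN with SE (horizontal axis) for the tested genes of 4 lists, 1 region per gene; filled points have an edgeR adjusted p under 0.05. CD74 (1.39) sits above the median of the macrophage markers (0.69), of which APOE (1.39) and LPL (1.6) are the 2 highest, while HLA-F (-3.91), THOP1 (-3.39) and RFXAP (-2.38) lie below 0.

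The genes most like each of the 3 across the 12 libraries were found by Pearson's correlation of log2 CPM, as a description of libraries that share the KD and NC split. For CD74 they were CCND1 (0.966), TASL (0.961), RLF (0.956), SQLE (0.953) and RHOC (0.951) among 4695 regions. CCND1, cyclin D1, averaged 169 CPM in KD IN and 64.2 CPM in NC IN. TASL, an adaptor of endosomal Toll-like receptors, averaged 88.8 CPM in KD IN and 19.3 CPM in NC IN. For TAPBP the nearest were DBI (0.848), VAC14 (0.845), AFTPH (0.839), SYT12 (0.806) and RABEP2 (0.801). For the longer HLA-F region they were PLAT (0.921), CARD10 (0.887), NOL8 (0.867), CBY1 (0.864) and EEF1A2 (0.859). PLAT, tissue plasminogen activator, averaged 1.33 CPM in KD IN and 26.5 CPM in NC IN, and 3.67 CPM in KD IP and 8.29 CPM in NC IP. CBY1 and EEF1A2 were likewise near 0 in KD IN, at 0 and 2.67 CPM, against 32.2 and 181 CPM in NC IN. The HEK293 list, chosen with earlier results of these data known, moved the same way as HLA-F in input. That is a description, and the part of this list in the HLA-F values was not tested.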

How the data were processed

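The authors deposited 1 peak table of PMA-treated THP-1 cells that gives whole-number counts, not normalized, for every library. The submitters' processing notes name fastp 0.23.4 and GRCh38; the aligner, peak caller and counter are not given in the sources used here. The deposited ratio (fold enrichment, equal to the score), p-values and log2 change are the authors' own, per the file headers, as is the peak length. Peaks are named per condition, not per library. Here counts were tested with edgeR 4.0.16 in R 4.3.3 (filterByExpr with minimum count 10 and total 15, TMM, quasi-likelihood F test on 4 group means of 12 libraries, two-sided, Benjamini-Hochberg over 5113 regions, threshold 0.05). Each library was scaled to its own peak reads, so a change common to all regions is not seen, and intervals of reads cover counting error only. DESeq2 1.42.0, other filters and scalings, replicate blocks and left-out libraries were alternatives. The scripts were tested on simulated data. Named genes were all 3 members, up to 6 genes per list by smallest input p, and 5 genes by likeness, besides the exceptions stated above. Members and lists were chosen with earlier results of these data known. Between IP and input, same-numbered libraries had r from 0.048 to 0.063 in KD and -0.019 to 0.068 in NC. Those of different number had r from -0.053 to 0 in KD and -0.064 to 0.045 in NC. All were small, which cannot show whether same-numbered libraries came from the same culture. In KD the same-numbered values all lay above those of different number, and in NC the ranges overlapped. Numbers were not taken as pairs in the main fit, and IP and input pairs were an alternative. Some genes of the lists are not reported here.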

Additional observations from a re-analysis of the deposited data

Results flagged for a closer look

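The longer HLA-F region had IP over input differences of opposite sign in the 2 groups, though it passed the filter on low counts through NC input. Its IP libraries lay above all input libraries in KD (3.1 to 4.27 against 0 to 3.05 CPM) and below all of them in NC (0.623 to 7.55 against 10.5 to 22 CPM). The change in enrichment was 3.5 on the log2 scale, with an edgeR adjusted p of 0.29. It was 7.04 without KD IN replicate 1 and 2.22 with both HLA-F regions summed. NC input enters this comparison, so the value is no support for a change. The KD side rests on 3 input reads from 1 library.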

How the results depend on the processing

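Over 15 results for CD74, TAPBP and HLA-F, 262 of 297 values under alternatives kept the direction and the side of the threshold, and the CD74 differences in input (log2 1.21 to 1.74) and IP (1.08 to 1.31) kept their call without any single library. Per 1000 macrophage marker reads, CD74 was 0.39 in input and 0.31 in IP, by an exact permutation test that cannot pass with 3 against 3 libraries, and TAPBP was -0.06 and -0.3. IP over input of CD74 in NC was 0.2 with library size alone (which shifted the median of all regions by 0.29 in NC and 0.17 in KD), 0.07 without the filter and -0.27 to 0.26 with libraries left out. HLA-F IP over input in NC lost its call with library size alone (-1.46), without the filter (-1.58), with at least 50 reads (-1.71), with a replicate block by number (-1.91), with a block of IP and input pairs (-1.93) and with both HLA-F regions summed (-0.98), and was -2.16 to -1.23 with libraries left out. In KD it was 1.15 to 5.34, the last without KD IN replicate 1 (edgeR adjusted p = 0.038), when no input read remained. HLA-F in IP, KD over NC, was -0.92 to 0.01 with libraries left out. TAPBP IP over input in KD was -0.02 with DESeq2, -0.05 with at least 50 reads and -0.29 to 0.43 with libraries left out; its enrichment change was -0.73 to 0.03 and its input difference 0.53 to 1.28. The number of regions called for the enrichment change was 21 with DESeq2, 45 without the filter, 16 with the block of IP and input pairs and 0 to 1 with libraries left out. The replicate blocks changed no other call of the 3 genes. The cause of these shifts was not tested. At 3 to 43 input reads per group, depth limits HLA-F most.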
